A study of Bombyx mori with 4 samples.

Results

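The array probes described here are those whose annotation names a ligand, a receptor or another component of the developmental signalling pathways of the silkworm, Bombyx mori. They were found by words in the gene symbol or description (wnt, wingless, frizzled, dishevelled, notch, hedgehog, smoothened, decapentaplegic, bone morphogenetic, smad, fibroblast growth factor, epidermal growth factor, rhomboid, semaphorin, ephrin, hippo and armadillo), leaving out names with zinc finger or protein kinase. The words found 81 of 23229 gene probes. BmN4-SID1 is a cell line derived from silkworm ovary cells that takes up double-stranded RNA from its medium, and all groups were this line, cultured without change other than the double-stranded RNA added. In 4 of them RNAi was directed at a Polycomb group gene, BmSCE of PRC1, BmESC of PRC2, BmPHO of PhoRC or BmSCM, and in the control at EGFP, a jellyfish gene, and cells were harvested on day 7. Each knockdown was measured on 1 array of 70-mer oligonucleotides, with RNA pooled from 3 experiments. Cy5 labelled the knockdown and Cy3 the control, so there is no replicate array, the dyes were not exchanged, and all 4 ratios stand against EGFP RNAi. The question addressed was which genes change when each Polycomb complex is depleted.

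Wnt, Hedgehog, Notch ligands, BMP and the EGF and FGF families are signals by which cells instruct their neighbours in the insect embryo and imaginal discs. Wnt ligands bind frizzled receptors and act through dishevelled and armadillo (beta-catenin), Hedgehog binds patched, BMP ligands such as decapentaplegic act through receptor kinases and Smad proteins, and Notch is cut on contact with Delta or Serrate and enters the nucleus. In Drosophila many genes of these pathways carry Polycomb marks, and rhomboid proteases release EGF ligands from the membrane.

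Values are log2 ratios of the knockdown over EGFP RNAi, and where 4 values follow each other they stand in the order BmSCE, BmESC, BmPHO and BmSCM RNAi. A probe was counted as measured on an array when its brighter channel reached 400 after background subtraction, and as risen or fallen when its ratio passed 2-fold, a log2 ratio of 1. Because each knockdown has 1 array, no call has a replicate check and no test was possible. The spots of 5 silkworm control probes printed 49 times each varied within an array with an SD of 0.07 to 0.42 on the log2 scale (median 0.10), which covers the spot and not the culture. Their medians were not all near 0. That of sw15061 was -0.70, -0.88, -1.10 and -1.14, past 2-fold in BmPHO and BmSCM RNAi. The median of sw22934 was 0.74, 0.44, 0.23 and 0.88, within 2-fold like the rest. Median intensity of all gene probes was 241, 318, 178 and 230 in Cy5 and 186, 260, 140 and 141 in Cy3, so by the median Cy5 was the brighter dye on every array. Equal intensities therefore correspond to a log2 ratio below 0 for the dimmer measured spots. The correction changed with brightness and was small for bright spots on the BmPHO array. Median log2 ratios of 8 yeast spike-in probes were 1.12, 1.14, 3.96 and 3.20, higher on the BmPHO and BmSCM arrays, and the part of this difference in the results was not tested. A probe matched to extra sex combs (sw12637), the counterpart of BmESC, read 0.13, -2.61, -0.33 and -0.68, lowest in BmESC RNAi, and a match to sex comb on midleg (sw13820) was under 400 on every array. Of 12 probes for ovary or germ line genes 3, 4, 4 and 3 were measured. Aubergine (sw10899) and piwi (sw00065), Argonaute proteins of the germ line, and a vitellogenin receptor match (sw12049) were measured on all arrays. Aubergine gave -0.71, -0.67, -1.07 and -0.20, a fall past 2-fold in BmPHO RNAi. Piwi gave -0.43, -0.28, 0.84 and 0.54, and the receptor match 0.14, 0.07, 0.30 and 0.40. Both probes for egg-specific protein, a yolk protein of the ovary, were under 400 throughout, as were nanos-M (sw21362) and a nanos-like protein (sw13236).

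Detection differed by role, although brightness also depends on the probe and does not rank transcripts. In all, 41 of the 81 probes (50.6%) were measured on at least 1 array, beside 11050 of 23229 gene probes (47.6%), and 17 (21.0%) were measured on all 4, beside 6491 (27.9%). Of 25 ligand probes 8 were measured anywhere (32.0%), and only a match to ephrin B2 was measured on all arrays. Among the 12 receptor probes outside the Notch group 7 were measured, 5 of them on all arrays. All 4 inhibitor probes were measured somewhere, but none on all arrays.

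In the Wnt group 5 of 16 probes were measured, and 1 of 8 ligands. Wnt-1 (sw07406), the silkworm wingless, reached 356 in its brightest channel and was not measured on any array. The matches to Wnt-4, Wnt-5 and Wnt-10B were also under 400 throughout. Of the Wnt-6 matches, one (sw02900) reached 399, 1 unit below the minimum, and the other (sw10550) was measured in BmESC RNAi alone, with a log2 ratio of 0.05. All 3 hedgehog ligand probes lay between 51 and 351. Under 400 as well were a match to the Notch ligand Delta-2 (82), a BMP receptor II match (217) and both Smad4 matches (227 and 366). So were a match to the FGF receptor heartless (217) and the dishevelled match (380). For these probes a change could not be read at this brightness, in either direction.

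**Figure D1:**
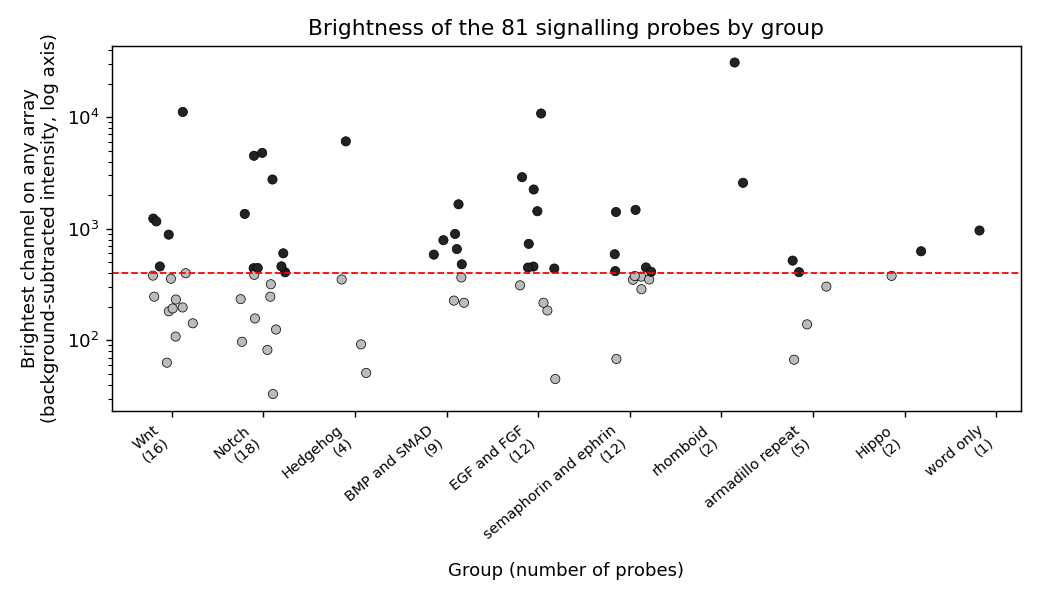
Brightest background-subtracted channel on any of the 4 arrays (log axis) for each of the 81 probes, by group, with the number of probes in brackets; black points reached the minimum of 400 (dashed line) and grey points did not. The 3 hedgehog ligands and 7 of 8 Wnt ligands lie among the grey points, and rhomboid-7 reached 30885.

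In total 6 of the 41 measured probes (14.6%) passed 2-fold on at least 1 array, beside 21.6% of all measured gene probes, and 35 stayed within 2-fold wherever they were measured. In RNA of a whole culture, fewer cells that make a transcript and less of it per cell cannot be told apart. In BmSCE RNAi 2 of 26 measured members rose (7.69%), beside 2.43% of all measured gene probes, and 0 fell, beside 1.1%. In BmESC RNAi 2 of 36 rose (5.56%, all probes 4.46%) and 1 fell (2.78%, all probes 3.25%). In BmPHO RNAi 3 of 19 rose (15.8%, all probes 11.8%) and 1 fell (5.26%, all probes 7.82%). In BmSCM RNAi 3 of 26 rose (11.5%, all probes 9.46%) and 2 fell (7.69%, all probes 6.29%). Each of these shares rests on at most 3 probes. The same 2 probes, rhomboid-7 and a Notch homolog 2 match, made up both rises in BmSCE and BmESC RNAi and 2 of the 3 rises in each of the others. The median of the members was 0.06, 0.05, 0.04 and 0.25, and that of all measured probes 0.02, 0.02, 0.05 and 0.07. Within 1.5-fold of EGFP RNAi lay 80.8%, 75.0%, 63.2% and 57.7% of the measured members and 85.1%, 79.0%, 57.3% and 58.9% of all measured probes.

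**Figure D2:**
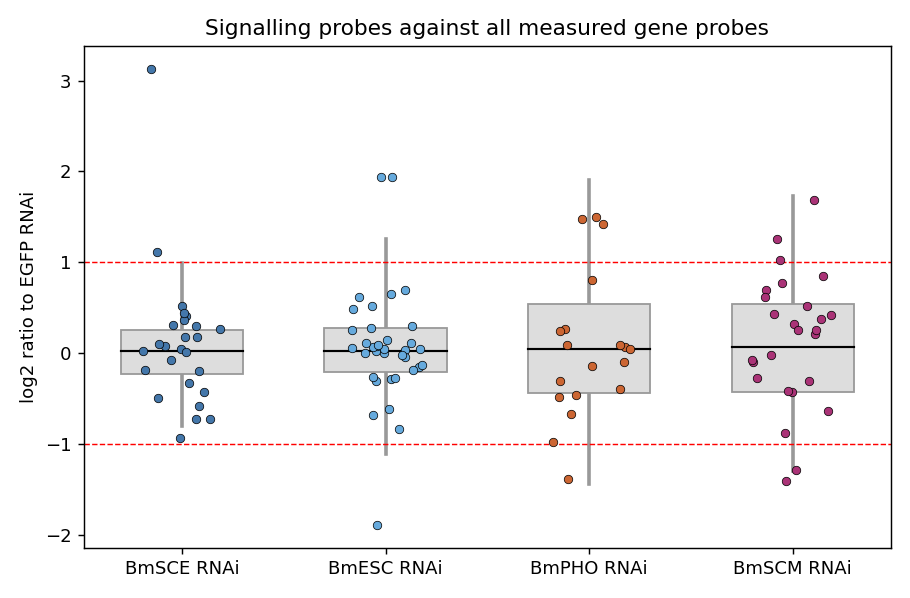
Log2 ratio to EGFP RNAi of each measured signalling probe (points) on each array, over all measured gene probes (box, 25th to 75th percentile; black line, median; grey line, 2.5th to 97.5th percentile), with dashed lines at 2-fold. Most points lie inside the grey line on every array, and the highest, at 3.13 in BmSCE RNAi, is the Notch homolog 2 match.

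Rhomboid-7 (sw14054, gene model Bmb022469) rose in all 4 knockdowns. It matches human PARL, a rhomboid protease of the mitochondrial inner membrane, which in mammals and Drosophila acts on mitochondrial proteins rather than on the EGF ligands cut by rhomboid-1. The study picked this gene from the same arrays for RT-PCR, so that assay was no independent choice. The paper reports that every gene tested in that assay was raised in the Polycomb knockdowns relative to EGFP RNAi. The assay was semi-quantitative and used cDNA of the same RNA samples as the arrays. It was thus a second measurement of the same cultures and no replicate of them. The RT-PCR primers are shown here because they mark the transcript and the sequence of the probe was not used here.
sense primer: tcagagcctggtccattgaaaaaatggtgg
antisense primer: tcacattccaaatatagctccaccaagatg
Intensity of rhomboid-7 in the knockdown was 25373, 30885, 18913 and 17808, and in EGFP RNAi on the same arrays 9634, 6118, 7026 and 7537. Every knockdown channel was higher than every EGFP RNAi channel. The log2 ratios were 1.11, 1.94, 1.48 and 1.26, that is 2.16-, 3.83-, 2.78- and 2.39-fold, largest in BmESC RNAi. By rank among all measured probes from the top it stood at 142 of 7833 in BmSCE, 45 of 9869 in BmESC, 387 of 7434 in BmPHO and 509 of 8310 in BmSCM RNAi. Of the 6491 gene probes measured on all arrays 49 rose on each of them (0.755%), and 2 of the 17 members measured on all arrays were among these. The second rhomboid probe (sw07869), a match to rhomboid family 1, an inactive relative that has lost the catalytic site and governs EGF ligand traffic in mammals, gave 0.18, 0.30, 0.09 and 0.38. The catalytic rhomboid thus rose on every array and the inactive relative stayed within 2-fold.

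Notch annotations covered 18 probes, 9 of them measured, and held both the highest rise and a fall. The probe with the highest ratio (sw15495) is annotated by a match to a sea urchin protein called Notch gene homolog 2. In the study's own gene list it carries the name of another Drosophila gene, CG14515, so that its membership of the Notch family rests on the array annotation. Its intensity was 4782, 2431, 1238 and 1748 in the knockdowns and 473, 492, 410 and 383 in EGFP RNAi. The EGFP RNAi channel was nearly level and close to 400 on every array, and the knockdown channel stood above it each time, most in BmSCE RNAi. The log2 ratios were 3.13, 1.94, 1.42 and 1.68 (8.75-, 3.84-, 2.67- and 3.21-fold), the 4th highest of 7833 measured probes in BmSCE RNAi and the 44th of 9869 in BmESC RNAi.

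A probe for a Bombyx notch-like protein (sw03837) was lower than EGFP RNAi on every array and fell past 2-fold in BmPHO and BmSCM RNAi. Its intensities were 2133, 1979, 852 and 1172 in the knockdowns against 2762, 2306, 2058 and 2282 in EGFP RNAi. The EGFP RNAi values lay within a narrow range, and the BmPHO and BmSCM values were the lowest. The log2 ratios were -0.58, -0.61, -1.38 and -1.29, a fall of 2.60-fold in BmPHO and 2.44-fold in BmSCM RNAi. On those arrays it ranked 213th from the bottom among 7434 and 8310 measured probes. In total 6 probes carry the annotation of the same notch-like protein, but only 1 other was measured (sw18249), in BmSCM RNAi alone, at 0.85, with 445 in the knockdown and 155 in EGFP RNAi. The fall therefore rests on 1 of the 6 probes, and the only other reading pointed the other way.

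A second sea urchin Notch match (sw20978), chosen after its values were seen, rose past 2-fold on the same 2 arrays on which the notch-like protein fell. Its intensity was 266, 409, 602 and 542 in the knockdowns and 245, 236, 180 and 169 in EGFP RNAi, under 400 in the control on every array. On the BmSCE array it was too dim to be measured. The log2 ratios in BmESC, BmPHO and BmSCM RNAi were 0.52, 1.50 and 1.02. The BmSCM value was just past 2-fold and was no longer past it with loess by print block (0.98) or with a floor of 200 (0.90).

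The other Notch probes stayed within 2-fold. A Notch 2 match (sw19627) gave 0.44, 0.09, 0.09 and 0.42. One Notch 1 match (sw12481) gave -0.73 in BmSCE and -0.88 in BmSCM RNAi, and another (sw01160) gave 0.21 in BmSCM RNAi. The match to notchless (sw03977), a WD40 protein that modifies Notch signalling in Drosophila and takes part in ribosome assembly, was among the steadiest, at 0.10, 0.05, 0.24 and -0.10. The match to strawberry notch (sw06470), a nuclear protein of the same pathway, gave -0.19 in BmESC RNAi. Of the probes matched to Scalloped wings, a blowfly Notch gene, all 3 were too dim.

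**Figure D3:**
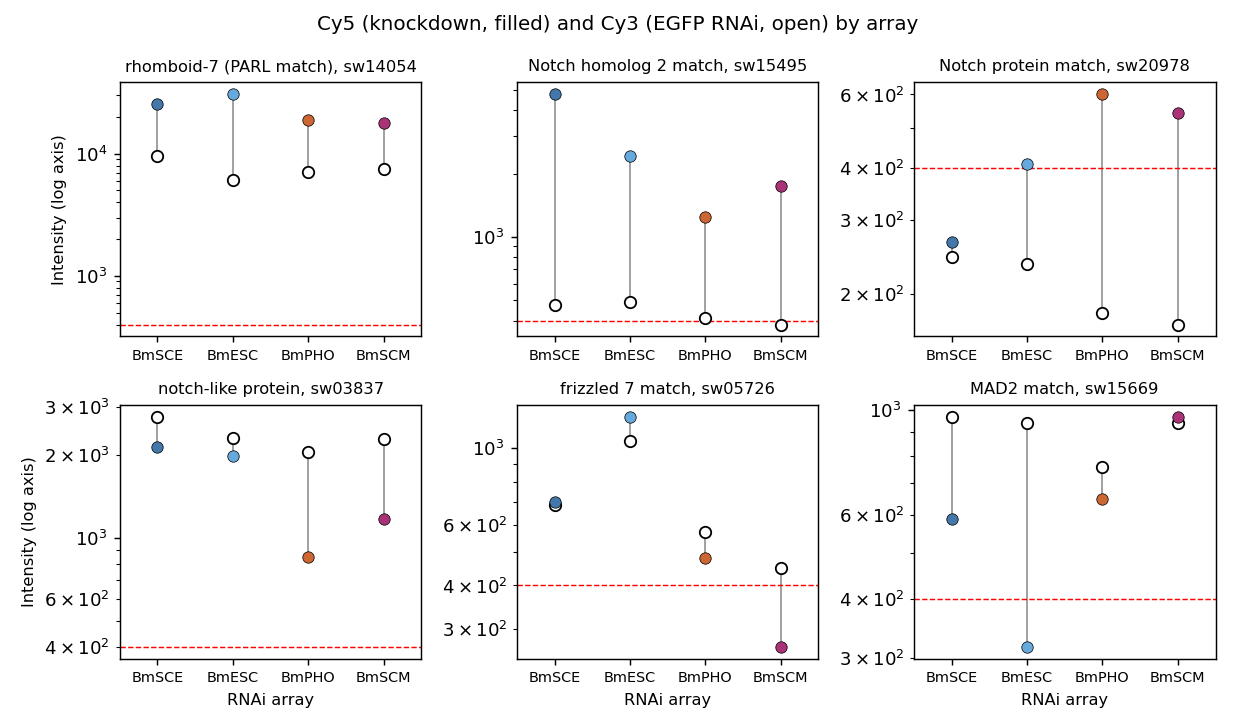
Intensity (log axis, scaled separately in each panel) of the 6 probes that passed 2-fold on at least 1 array, in the knockdown (filled, Cy5) and in EGFP RNAi (open, Cy3) of the same array; the dashed line marks 400. The knockdown lies above EGFP RNAi on all 4 arrays for rhomboid-7 and the Notch homolog 2 match and below it on all 4 for the notch-like protein. It also lies above on all 4 for the dimmer Notch match sw20978, which was not measured in BmSCE RNAi.

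In the Wnt pathway a single receptor passed 2-fold. The frizzled 7 match (sw05726), a Wnt receptor, had intensities of 698, 1234, 480 and 265 in the knockdowns and 682, 1051, 572 and 450 in EGFP RNAi. The knockdown channel was above EGFP RNAi in BmSCE and BmESC RNAi, below it in BmPHO RNAi and, under 400, farthest below it in BmSCM RNAi. The log2 ratios were -0.19, -0.13, -0.46 and -1.41, a fall of 2.67-fold in BmSCM RNAi. A second frizzled receptor match (sw15406) went the other way, at 0.52 in BmSCE, 0.49 in BmESC and 0.77 in BmSCM RNAi, all within 2-fold. The remaining frizzled matches, 3 in number, were too dim to be measured.

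Armadillo (sw20970), the beta-catenin that carries the Wnt signal and joins cadherins at cell contacts, was measured on all arrays. Intensities in the knockdowns were 9494, 7876, 3252 and 8884, and in EGFP RNAi 11133, 10730, 6458 and 9257. The BmPHO value was the lowest of all, on the array whose gene probes were dimmest. The log2 ratios were -0.49, -0.84, -0.98 and -0.08, within 2-fold on every array, and the BmPHO value lay just inside the threshold. With loess by print block and with the authors' ratio the BmPHO value was -0.82 and -0.59, the BmESC value -0.70 and -0.56 and the BmSCE value -0.28 and -0.40. The BmSCM value was above 0 under the same 2 settings, at 0.23 and 0.13. Wnt inhibitory factor 1 (sw00353), a secreted Wnt antagonist, gave 0.08 and 0.03 in BmSCE and BmESC RNAi and was too dim in the others.

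Of the Hedgehog group only the receptor was measured. The hedgehog receptor match (sw10752), named after patched of a butterfly, had intensities of 3545, 5601, 3976 and 6069 in the knockdowns and 3848, 3990, 3793 and 3935 in EGFP RNAi. The EGFP RNAi values were almost equal, and the highest knockdown value was that of BmSCM RNAi. Its log2 ratios were -0.33, 0.11, 0.07 and 0.52, within 2-fold on every array. The receptor was read on each array and the ligands on none.

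No probe of the BMP and SMAD group passed 2-fold on any array, with 6 of 9 measured. Decapentaplegic (sw00355, a match to a sawfly protein), the BMP ligand of insects, gave 0.02 in BmESC RNAi and 0.69 in BmSCM RNAi, where the knockdown read 464 and EGFP RNAi 182. The Smad2/3 match (sw17864), a transducer of the activin branch, gave -0.43, 0.06, 0.04 and 0.32. Under 2 other normalizations its BmPHO value took the opposite sign, at -0.25 and -0.21, so no direction is given for it. The inhibitors of the pathway, both SMAD6 matches and the SMURF2 match, a ubiquitin ligase that removes Smads, ranged from -0.31 to 0.27 where measured.

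Of 4 FGF receptor probes 3 were measured on all arrays, and none passed 2-fold. The FGF receptor match (sw17942) had intensities of 8538, 10789, 4161 and 3815 in the knockdowns and 5823, 5372, 5194 and 4696 in EGFP RNAi. The EGFP RNAi values were close to each other, and the knockdown values were above them in BmSCE and BmESC RNAi and below them in BmPHO and BmSCM RNAi. The log2 ratios were 0.31, 0.62, -0.31 and -0.42. Breathless (sw04150), the FGF receptor of tracheal cells in Drosophila, chosen after its values were seen, had intensities of 1975, 2898, 737 and 974 in the knockdowns and 1290, 1417, 1057 and 841 in EGFP RNAi. Its log2 ratios were 0.41, 0.65, -0.67 and -0.27, with the same signs, although the BmSCM value was 0.06 with median centring. The FGF receptor 3 match (sw18885) did not share them, at 0.02, 0.15, 0.80 and 0.26, with its highest value in BmPHO RNAi. These differences between arrays have no replicate check.

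Elsewhere in the EGF and FGF group the EGF-like protein match (sw12509) gave 0.30 in BmSCE, -0.28 in BmESC and 0.43 in BmSCM RNAi. The match to flamingo (sw16309), an atypical cadherin of planar cell polarity whose description mentions EGF, gave 0.18, -0.02 and 0.25 on the same arrays. The PP2C gamma match (sw03243), a protein phosphatase that enters the list by its description as induced by FGF, gave -0.72, -0.68, -0.10 and -0.64. Matches to an EPS15-like protein, which works in endocytosis of the EGF receptor, and to a Golgi protein that binds FGF gave 0.07 and 0.08 in BmESC RNAi alone.

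Among the axon guidance signals 6 of 12 probes were measured and none passed 2-fold. Ephrin B2 (sw13585, a zebrafish match), a membrane-bound ligand, gave 0.01, -0.27, -0.48 and -0.31. Semaphorins, which repel growing axons, were read mainly in BmESC RNAi, with 2 semaphorin-I matches at -0.15 and 0.28 and a semaphorin 2a match (sw09781) at 0.00. A semaphorin-1A match (sw13448) was measured in BmSCE RNAi alone, at 0.37, and the ephrin receptor match (sw03613) in BmESC RNAi alone, at 0.00 after rounding.

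The remaining probes entered by a word and not by a known role in these pathways. MAD2 (sw15669, a chicken match whose description holds a name with smad in it), a protein of the spindle checkpoint and no Smad, was the one member that fell in BmESC RNAi. Its intensities were 590, 316, 648 and 969 in the knockdowns and 966, 941, 757 and 941 in EGFP RNAi, with log2 ratios of -0.93, -1.89, -0.40 and -0.43. The lowest knockdown value was that of BmESC RNAi, a fall of 3.70-fold, 33rd from the bottom of 9869 measured probes. The shippo 1 match (sw07537), a sperm tail protein found through the word hippo, gave 0.70 in BmESC RNAi, and the other hippo probe was too dim. The armadillo repeat proteins ARMC6 (sw07623) and ARMC8 (sw17935) gave 0.11 in BmESC RNAi and 0.62 in BmSCM RNAi.

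**Figure D4:**
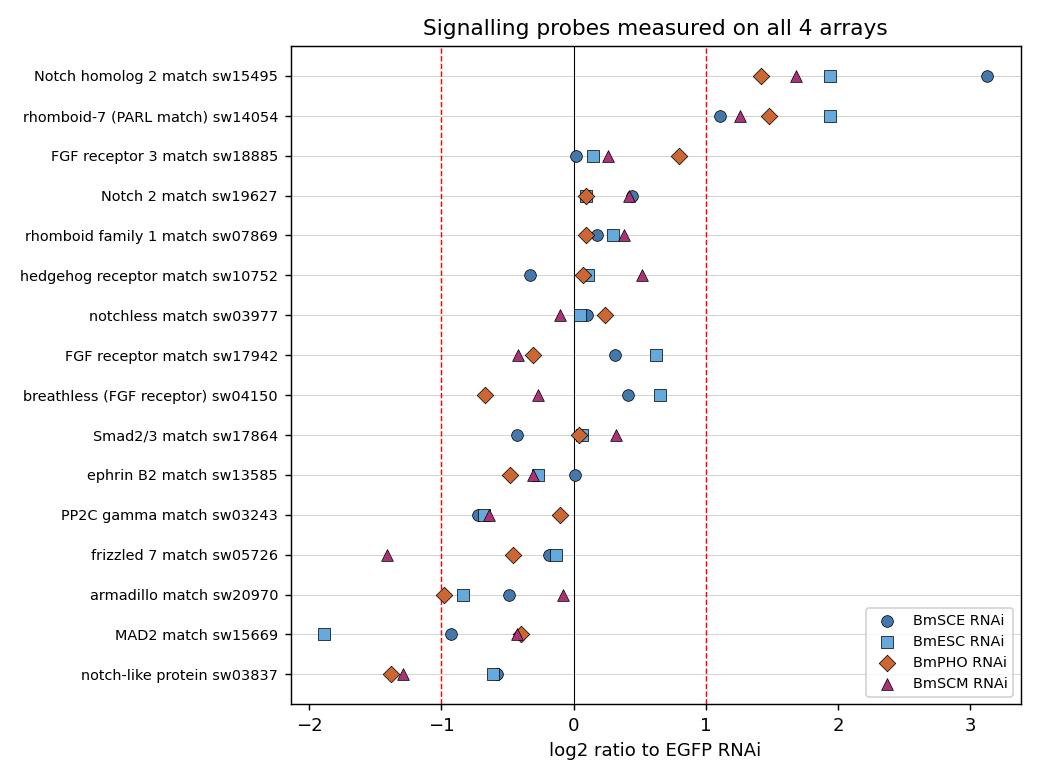
Log2 ratio to EGFP RNAi (x axis) of 16 of the 17 probes measured on all 4 arrays, ordered by their mean, with 1 symbol per knockdown and dashed lines at 2-fold. The Notch homolog 2 match and rhomboid-7 lie right of 1 on all arrays, and 11 of the 16 lie between the dashed lines on every array.

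Words for other ligands, receptors, intracellular components and regulators of these pathways found 91 further probes. Some of these matched by a word alone, such as dedicator of cytokinesis 3 and a subunit of Mediator. The shares below are therefore those of the words and not of pathway genes alone. In BmSCE RNAi 0 of 32 measured rose (all probes 2.43%) and 0 fell (1.1%), and in BmESC RNAi 0 of 37 rose (all probes 4.46%) and 1 fell (all probes 3.25%). In BmPHO RNAi 8 of 32 rose (25.0%, all probes 11.8%) and in BmSCM RNAi 9 of 33 (27.3%, all probes 9.46%), and 0 fell on either, beside 7.82% and 6.29% of all probes. Without the 4 matches to a substrate of protein kinase C and casein kinase, found by its name alone, the BmPHO array had 5 of 28 risen (17.9%) and the BmSCM array 6 of 29 (20.7%). With all 91 probes their medians were 0.09, 0.15, 0.43 and 0.46. All arrays share the EGFP RNAi reference, and the difference between arrays was not tested.

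Of the probes found by the Wnt words 5 of 13 measured rose in BmPHO RNAi (38.5%, all probes 11.8%) and 6 of 15 in BmSCM RNAi (40.0%, all probes 9.46%). On each array 3 of these were the casein kinase substrate, and without it the Wnt words did not hold most of the rises. Casein kinase I alpha, which phosphorylates beta-catenin, had 3 probes, which differed. Of these sw17929 gave 0.29, 0.90, 2.08 and 1.02, sw10793 gave 0.61, 0.71, 1.49 and 0.45, and a honeybee match (sw00366) stayed at 0.05, -0.02, 0.00 and 0.11. Legless (sw02116), which links beta-catenin to pygopus in the nucleus, gave 0.24, 0.27, 0.79 and 1.07, and pygopus (sw07847) itself gave 1.08 in BmSCM RNAi, the one array where it was measured. The other 3 rises on each array were matches to the casein kinase substrate (sw11338, sw05215 and sw06962), a protein of membrane traffic, at 1.86, 1.44 and 1.46 in BmPHO RNAi and 1.77, 1.32 and 1.75 in BmSCM RNAi. The remaining match (sw01163), to the same sea urchin protein as sw05215, gave -0.02 and 0.43 on these arrays. In contrast the Axin match (sw14620), the scaffold that destroys beta-catenin, stayed within 2-fold, at 0.06, 0.09, 0.52 and 0.72. Casein kinase 2 alpha (sw22907), casein kinase 2 beta (sw14759) and a CTNNBL1 match (sw06570), found by the same words, were below 0 on every array and within 2-fold.

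Mastermind (sw09199), the nuclear co-activator of Notch, rose in BmPHO and BmSCM RNAi, with 0.12, 0.24, 1.33 and 1.08. A match to a Numb-interacting protein (sw07954) gave 0.53, 0.51, 1.75 and 1.00. Presenilin and nicastrin, which belong to the protease that cuts Notch inside the membrane, did not pass 2-fold where measured. Presenilin (sw13140) was read in BmESC and BmPHO RNAi alone, at 0.68 and 0.39. Nicastrin (sw22896) gave 0.20, -0.04, 0.18 and 0.00 after rounding, and a second nicastrin match (sw18136) was too dim on every array. Costal2 (sw14764), the kinesin-like scaffold of the Hedgehog pathway, gave 0.43, 0.34, 1.28 and 1.07, and cubitus interruptus (sw14286), its transcription factor, 0.09, 0.51, 0.65 and 0.57. Thickveins (sw21102), a BMP receptor, reached 1.00 in BmPHO RNAi after rounding without passing 2-fold. The only fall was that of expanded (sw03959), an upstream protein of the Hippo pathway, at -0.92, -1.34, -0.11 and -0.22.

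**Figure D5:**
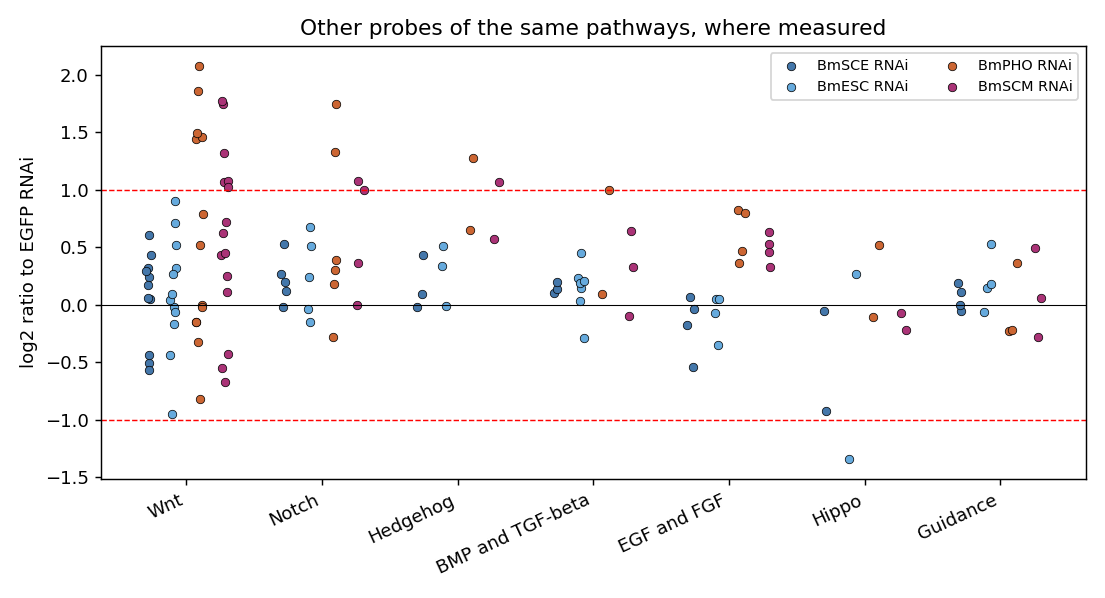
Log2 ratio to EGFP RNAi of the other measured probes found by words for the same pathways, by word list and knockdown, with dashed lines at 2-fold. Points above 1 are those of BmPHO and BmSCM RNAi in the Wnt, Notch and Hedgehog lists, and the point below -1 is expanded in BmESC RNAi.

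Words for markers of other silkworm cells found further probes on the same arrays, not all of them specific to those cells. Muscle words found 31 probes, of which 12 to 16 were measured, with medians of -0.32, -0.33, -0.57 and -0.12. Among the measured muscle probes were matches to nonmuscle myosin-9 (sw03159) and myosin-5A (sw16346 and sw09722). The probes for troponin T (sw22863) and troponin I (sw14071) were under 400 throughout. The 25 haemocyte probes had medians of 0.28, 0.29, 0.27 and 0.27 over 7 to 10 measured, and the 16 nerve probes 0.20, 0.04, 0.29 and 0.66 over 6 to 8. The haemocyte list held a probe annotated as eukaryotic translation initiation factor 6 (sw10747). These medians are therefore those of the words and not of muscle or haemocyte genes alone. Silk gland and fat body words found 8 probes each, of which 2 or 3 were measured, and the measured fat body probes included vitellogenin receptor matches that the ovary list also holds. The one probe of these lists that rose on all 4 arrays was an arylphorin match (sw06703), a larval storage protein, at 1.21, 2.11, 1.73 and 2.02. The probe for the silkworm's own arylphorin (sw03545) was under 400 on every array, as were those for storage protein SP1 (sw12337) and vitellogenin (sw08165). The part of sw06703 in the values of rhomboid-7 and the Notch homolog 2 match was not tested.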

How the data were processed

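RNA of 4 knockdowns of BmN4-SID1 cells was measured against EGFP RNAi on 4 arrays with 2 colours and 24288 spots each. The intensity columns were deposited by the authors after background subtraction and before dye normalization. The deposited ratio column and the deposited log2 table hold the authors' own normalized values and served as an alternative. The image software, the flag rule and the authors' normalization are not stated. From the intensities, values under 100 were set to 100, and log2 ratios were normalized array by array with the loess of limma 3.58.1 (span 0.3, all gene probes) in R 4.3.3; counting used Python 3.11.15, numpy 2.4.6 and pandas 2.3.3, and plots matplotlib 3.10.9. The loess step was tested on simulated data. A spot was counted as measured by its deposited flag, which in the values went with a brighter channel of at least 400. Changes were called at 2-fold, as in the study. The number of arrays limits the precision.

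Members and lists were chosen with earlier results of these data known. Named members were rhomboid-7, those past 2-fold and measured on all arrays or with both channels at least 400, and the brightest of each group; other members are given by their values. The files give 4 members a gene number, and all 4 matched the RefSeq gene table. Names resting on another species are called matches. No genome coordinates were used here, and 1 member measured on all arrays is counted but not reported here. Alternatives changed the normalization, the floor, the filter and the threshold, and some, chosen after seeing the data, left out 10 word-only matches among the members or the casein kinase substrate among the other genes. The 10 included notchless and the PP2C gamma match. They did not include rhomboid-7, which also entered by its name, or the Notch homolog 2 match. Both rises in BmSCE and BmESC RNAi therefore stayed in the counts without them.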

Additional observations from a re-analysis of the deposited data

Results flagged for a closer look

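Breathless (sw04150), an FGF receptor, moved in opposite directions in 2 knockdowns, with a log2 ratio of 0.65 in BmESC RNAi and -0.67 in BmPHO RNAi, both past 1.5-fold and neither past 2-fold. The values differ by 1.32. This difference was not tested, since each knockdown has 1 array. With median centring the BmPHO value was -0.52, no longer past 1.5-fold.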

How the results depend on the processing

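No paired analysis was possible because each knockdown has 1 array and no replicate, and for the same reason no replicate could be left out. Of the counts and medians, 119 alternative values stayed near the reported ones and 33 moved. Members risen in BmSCE RNAi numbered 1 past 3-fold, and fallen members 1 with loess by print block, 1 with the authors' ratio and 3 past 1.5-fold. In BmESC RNAi 5 rose and 4 fell past 1.5-fold, and 0 fell with both channels at least 400 or without the word-only matches. In BmPHO RNAi 0 rose and 0 fell past 3-fold and 3 fell past 1.5-fold, and the median was -0.10 with both channels at least 400. In BmSCM RNAi 7 rose with median centring, 1 with both channels at least 400, 7 past 1.5-fold and 1 past 3-fold, while 1 fell with median centring, 1 with both channels at least 400, 4 past 1.5-fold and 0 past 3-fold. Its median was 0.52 with median centring, 0.14 by print block, -0.09 with both channels at least 400 and 0.00 with no filter; the cause was not tested. Median centring set the median of all measured probes at 0.31 on the BmSCM array and at 0.11, 0.16 and 0.14 on the others. Of the other probes found by pathway words, 1 rose in BmSCE and 3 in BmESC RNAi past 1.5-fold, and 1 in BmESC RNAi with median centring. In BmPHO RNAi 5 rose with both channels at least 400, 5 without the casein kinase substrate, 13 past 1.5-fold and 3 past 3-fold, and in BmSCM RNAi 3 with both channels at least 400 and 2 past 3-fold. These alternatives were chosen after seeing the data, as were those of sw20978 and sw04150.

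Of the single values of the named members, sw20978 and sw04150, 326 stayed near the reported ones and 33 moved, and no value past 2-fold changed sign. MAD2 (sw15669) passed 2-fold in BmSCE RNAi with the authors' ratio, at -1.15, and the frizzled 7 match (sw05726) no longer passed it in BmSCM RNAi with median centring, at -0.91. The Notch match sw20978 no longer passed it in BmSCM RNAi by print block, at 0.98, or with a floor of 200, at 0.90. Rhomboid-7 ranged from 1.08 to 2.14 and the Notch homolog 2 match from 1.35 to 3.34 over the arrays and settings in which they were measured, and both stayed past 2-fold. Brightness limits the list, since 40 of the 81 probes gave no reading, and 26 were read somewhere with only 1 channel at 400.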
